A study of Canis lupus familiaris with 29 samples.

Results

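PD-98059, an inhibitor of the kinase MEK, was added to HGF-treated Madin-Darby canine kidney (MDCK) cells grown as a 2D layer on transwell filters, and its effect on RNA levels was measured against cells given HGF alone. The comparison uses 8 of the 29 arrays in the series, chosen by their titles, with 4 arrays of cells given HGF and PD-98059 and 4 arrays of cells given HGF without an inhibitor. MDCK is an established epithelial line from dog kidney, and all 29 arrays come from it. Used beside these were 4 arrays of untreated 2D cells, 3 arrays of 2D cells given HGF and U0126, a second MEK inhibitor, and 7 arrays of cells grown in 3D in collagen, 4 with HGF and 3 with HGF and PD-98059. Every array with PD-98059 also carries HGF, so the action of PD-98059 on cells without HGF was not analysed here. The doses of HGF and of the inhibitors, the times of exposure and any solvent given to the cells with HGF alone are details not given in the sources used here.

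Hepatocyte growth factor (HGF) binds the receptor tyrosine kinase MET and signals in part through RAS, RAF, MEK and the kinase ERK, which phosphorylates transcription factors and other kinases. MDCK cells loosen their contacts and scatter on a flat surface when HGF is added, and in collagen they send out extensions and form tubules. PD-98059, a flavone, and U0126, a compound of a different structure with nitrile groups, both block MEK, so they cut the pathway between RAF and ERK. ERK is known to raise the transcription of immediate early genes and of phosphatases that in turn limit it.

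RNA was measured on a canine Affymetrix array, and each deposited value is the log2 level of a probe set, used as it stands. A difference of 1 on this scale is a doubling. Of 42924 probe sets that are not Affymetrix controls, the 16571 that reached log2 5 on at least 3 of the 29 arrays were tested with limma, with Benjamini-Hochberg adjustment over all of them and a threshold of 0.05. They stand for 7052 named genes, and gene lists were counted with the brightest probe set of each gene. A probe set high in a single group passes this filter through that group's arrays. Its p-value is then not independent of the filter. A group mean under log2 5 is called dim, since levels there lie near the floor and a fold against them is uncertain, so differences from or to a dim level are given on the log2 scale alone and depend on where that floor lies. The labels do not say that the arrays of a group come from separate cultures, so the p-values measure the spread between these samples, which may be technical, and the number of arrays limits the precision. Array medians over the tested probe sets lay between 8.32 and 8.67 in the whole series, and the lowest correlation between arrays was 0.9903 within the HGF group and 0.9924 within the PD-98059 group.

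The cells carried the markers of their labelled type. Of the 10 epithelial markers looked for and on the array, 8 lay at log2 5 or more in both groups, while CDH1 and PAX8 did not. None of 8 fibroblast and none of 7 endothelial markers reached that level in either group. Of 8 leukocyte markers, CD68 alone reached it, at a mean of 5.77 with HGF and 2.85 with PD-98059. The summed epithelial level, as a log2 value, ranged from 16.1 to 16.26 with HGF and from 15.97 to 16.26 with PD-98059. The sums ranged from 5.91 to 5.92 and from 5.89 to 6.07 for the fibroblast markers, and from 6.12 to 6.22 and from 6.2 to 6.22 for the endothelial ones. The leukocyte sum ranged from 6.61 to 7.5 with HGF and from 6.3 to 6.34 with PD-98059. Its part in the results was not tested. An index of RNA quality, the mean log2 gap between control probe sets at the 3' end and further upstream in a transcript, differed between the groups. It ranged from 0.798 to 0.902 with HGF, from 1.28 to 1.41 with HGF and PD-98059, and from 1.3 to 1.53 in untreated 2D cells. The difference of 0.527 with PD-98059 gave p = 0.0286 in an exact two-sided permutation test, the smallest value that 4 arrays against 4 allow. By control gene the difference was 1.55 for ACTB, 0.154 for GAPDH and -0.125 for EEF1A1. With the index of each array as a covariate, the fit of PD-98059 against HGF alone gave 4824 probe sets higher and 4114 lower. Since the index did not overlap between the 2 groups, this fit cannot separate RNA quality from PD-98059. The index varied little within them (SD 0.0476 and 0.0609) and most in 3D with HGF (SD 0.583), so the adjustment leans on other groups. The same limit holds for the list counts given from this fit.

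PD-98059 changed a large part of the measured transcriptome of HGF-treated 2D cells in both directions. Of the 16571 probe sets, 4566 (27.6%) were higher with PD-98059 and 4124 (24.9%) were lower, together 52.4%. A change of at least 2-fold past the threshold was seen for 1415 (8.54%) higher and 1441 (8.7%) lower probe sets. The 4 arrays with PD-98059 did not overlap the 4 with HGF alone for 8213 probe sets (49.6%). Counted by gene, 1902 of 7052 (27.0%) rose and 1897 (26.9%) fell, and the median difference over all genes was 0.01. These shares are the background for the counts of each gene list. The lists were chosen with earlier results of these data known. An excess of a list over the background is therefore a description and not independent support. In such whole-culture samples, fewer cells of a kind and less RNA per cell cannot be told apart.

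**Figure D1:**
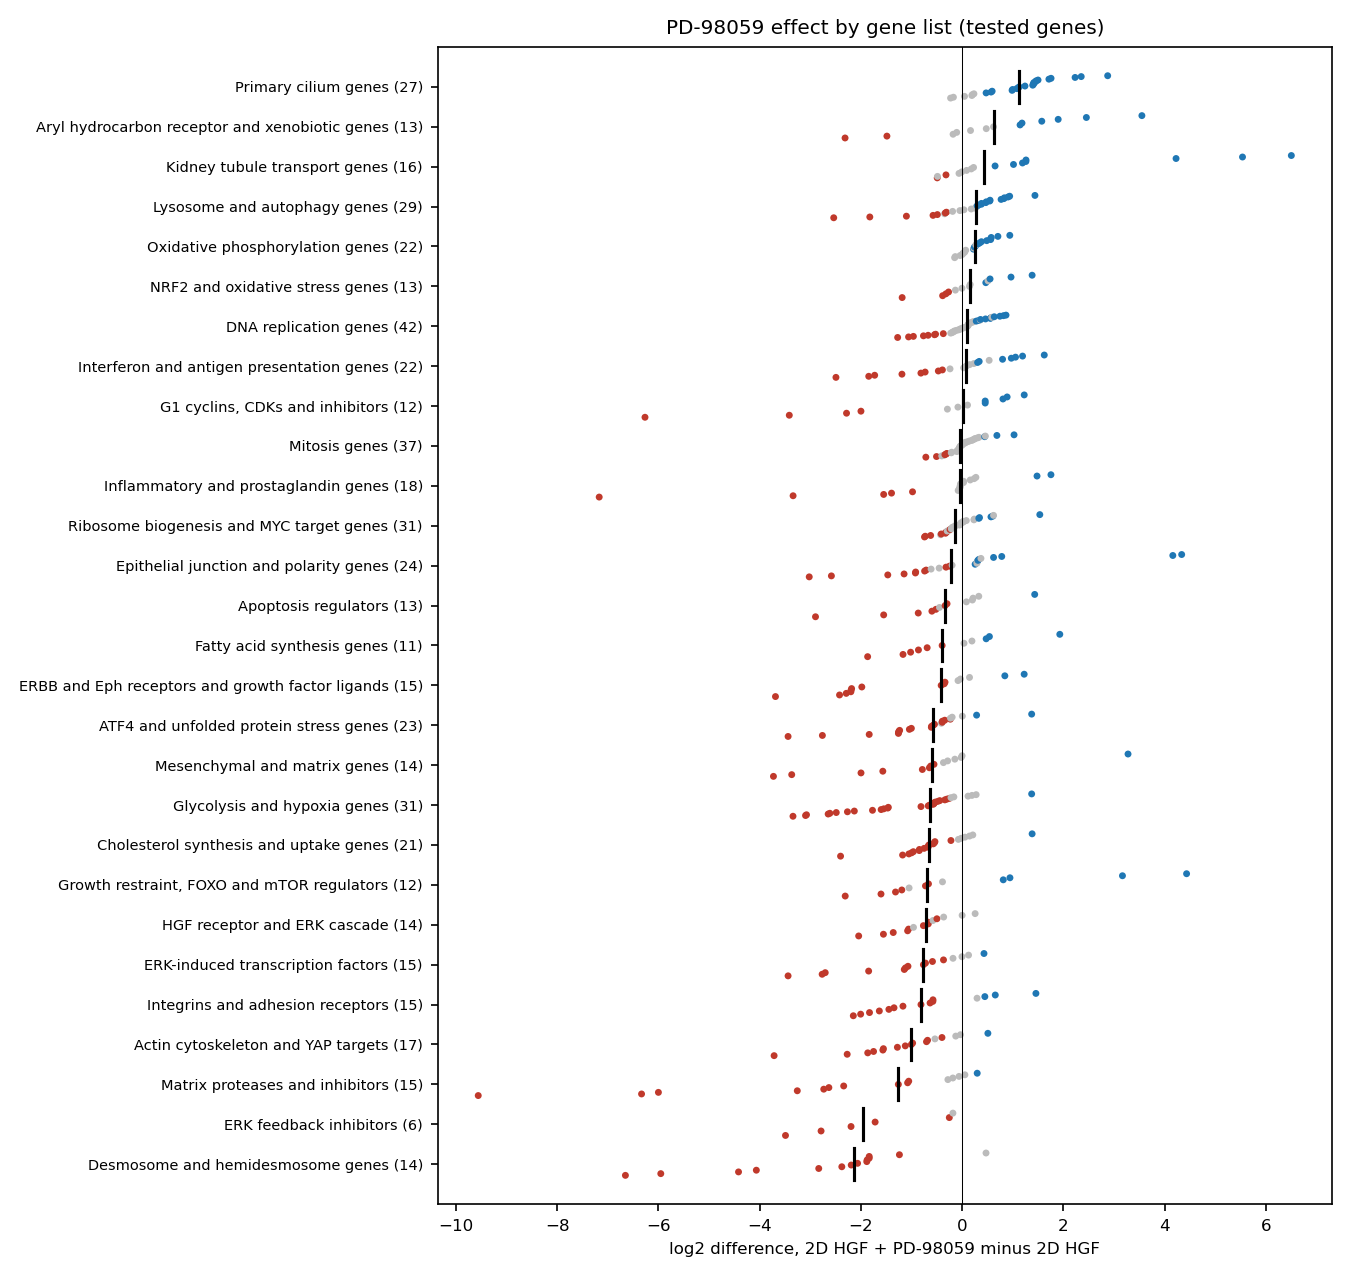
Log2 difference between HGF with PD-98059 and HGF alone in 2D (horizontal axis) for the tested members of 28 gene lists (vertical axis, ordered by their median), each dot a gene at its brightest probe set. Blue dots rose, red dots fell and grey dots did not pass the threshold, and the black bar is the list's median. Desmosome and hemidesmosome genes have the lowest medians together with ERK feedback inhibitors, at -2.13 and -1.96, and primary cilium genes have the highest, at 1.13.

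The feedback inhibitors of ERK fell together. Of 6 tested members, 5 fell and none rose, with a median of -1.96. DUSP5, a nuclear phosphatase that acts on ERK, read 10.73, 10.42, 10.70 and 10.82 on the 4 HGF arrays and 6.93, 6.77, 7.82 and 7.19 on the 4 arrays with PD-98059. Every array with PD-98059 lay below every HGF array, near the untreated mean of 7.59 ± 0.134 (SD, n = 4), from which it differed by -0.41 ± 0.198 (adjusted p = 0.135). DUSP5 fell by 3.49 ± 0.198 on the log2 scale (SE), or 11.2-fold, with an adjusted p of 6.41e-14. DUSP1, a related phosphatase of MAP kinases, fell by 2.19 ± 0.119. ERRFI1, an inhibitor of EGFR family receptors, fell by 2.79 ± 0.121, and IER3, an early response gene, fell by 1.72 ± 0.166.

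DUSP6, the cytoplasmic phosphatase of ERK, was the member that did not pass. It did fall past the threshold after centring each array on its median, with array weights, with the RNA-quality covariate and without PD-98059 array 4. It read 13.55, 13.53, 13.55 and 13.47 with HGF and 13.27, 13.17, 13.41 and 13.54 with PD-98059, and these ranges overlapped. Its difference was -0.18 ± 0.0915 (SE, adjusted p = 0.103), and its level with PD-98059 stayed above that of untreated cells by 0.89 ± 0.0915 (adjusted p = 3.61e-08). The classic ERK targets SPRY4, SPRED1, SPRED2, ETV4, ETV5 and FOSL1 did not reach log2 5 on 3 arrays and were not tested. DUSP4 and SPRY2 had no probe set assigned to a single gene.

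Transcription factors induced by ERK were lower as well. Of 15 tested, 11 fell and 1 rose, with a median of -0.76. EGR1, a zinc finger factor of the immediate early class, read 6.83, 7.38, 6.81 and 7.43 with HGF and 4.40, 4.41, 4.55 and 4.27 with PD-98059. It fell by 2.70 ± 0.271 (adjusted p = 3.91e-09) to a dim level. Its level with HGF alone, a mean of 7.11 ± 0.34, was already below the 8.83 ± 0.281 of untreated cells, so the level with PD-98059 was the lowest of the 3. FOS, the partner of JUN in the AP-1 factor, read 14.90, 14.70, 14.86 and 14.81 with HGF and 12.99, 12.86, 12.86 and 13.18 with PD-98059, and fell by 1.85 ± 0.0947 (adjusted p = 8.94e-15). The untreated mean for FOS was 14.04 ± 0.149, above that with PD-98059.

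KLF6, a zinc finger factor, fell by 3.44 ± 0.113 (10.8-fold) and ELK3, an ETS factor of the ternary complex family, fell by 2.77 ± 0.123. MYC, a driver of growth and ribosome production, read 9.34, 8.92, 9.10 and 9.38 with HGF and 8.23, 8.09, 8.06 and 8.09 with PD-98059 and fell by 1.07 ± 0.129 (adjusted p = 9.92e-08), to a level 0.43 above the untreated one. PHLDA1 fell by 1.45 ± 0.205. ID3, an inhibitor of basic helix-loop-helix factors, was the single riser, at 0.43 ± 0.151, and its call was lost in some of the alternative settings.

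The receptor itself and its cascade followed. Of 14 tested genes of the HGF receptor and ERK cascade, 9 fell and none rose, with a median of -0.72. MET, the HGF receptor, read 10.10, 9.98, 10.02 and 9.84 on the HGF arrays and 8.49, 8.33, 8.36 and 8.54 with PD-98059. All 4 values with PD-98059 were lower, and MET fell by 1.55 ± 0.164 (2.94-fold, adjusted p = 9.43e-09). HRAS, one of the RAS switches, fell by 2.04 ± 0.206. RASA1, a GTPase activator that turns RAS off, fell by 1.36 ± 0.105, and RPS6KA1, a kinase activated by ERK, fell by 1.08 ± 0.146.

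Growth factor ligands and receptors of the ERBB and Eph families were mostly lower, with 10 of 15 down, 2 up and a median of -0.41. INHBA, which codes for the subunit of activin A, read 8.42, 8.71, 9.38 and 8.70 with HGF and 5.82, 5.57, 4.42 and 4.66 with PD-98059, and fell by 3.69 ± 0.353 (adjusted p = 1.64e-09). EREG, an EGF family ligand, fell by 2.42 ± 0.252 to a dim level. EPHA2, a receptor for ephrins known as an ERK target, fell by 2.29 ± 0.34, although its mean was dim in both groups. VEGFA, the growth factor of blood vessels, fell by 2.20 ± 0.153. The 2 risers were receptors. FGFR2 rose by 1.23 ± 0.0691 and ERBB3, a receptor for neuregulins, by 0.85 ± 0.143.

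**Figure D2:**
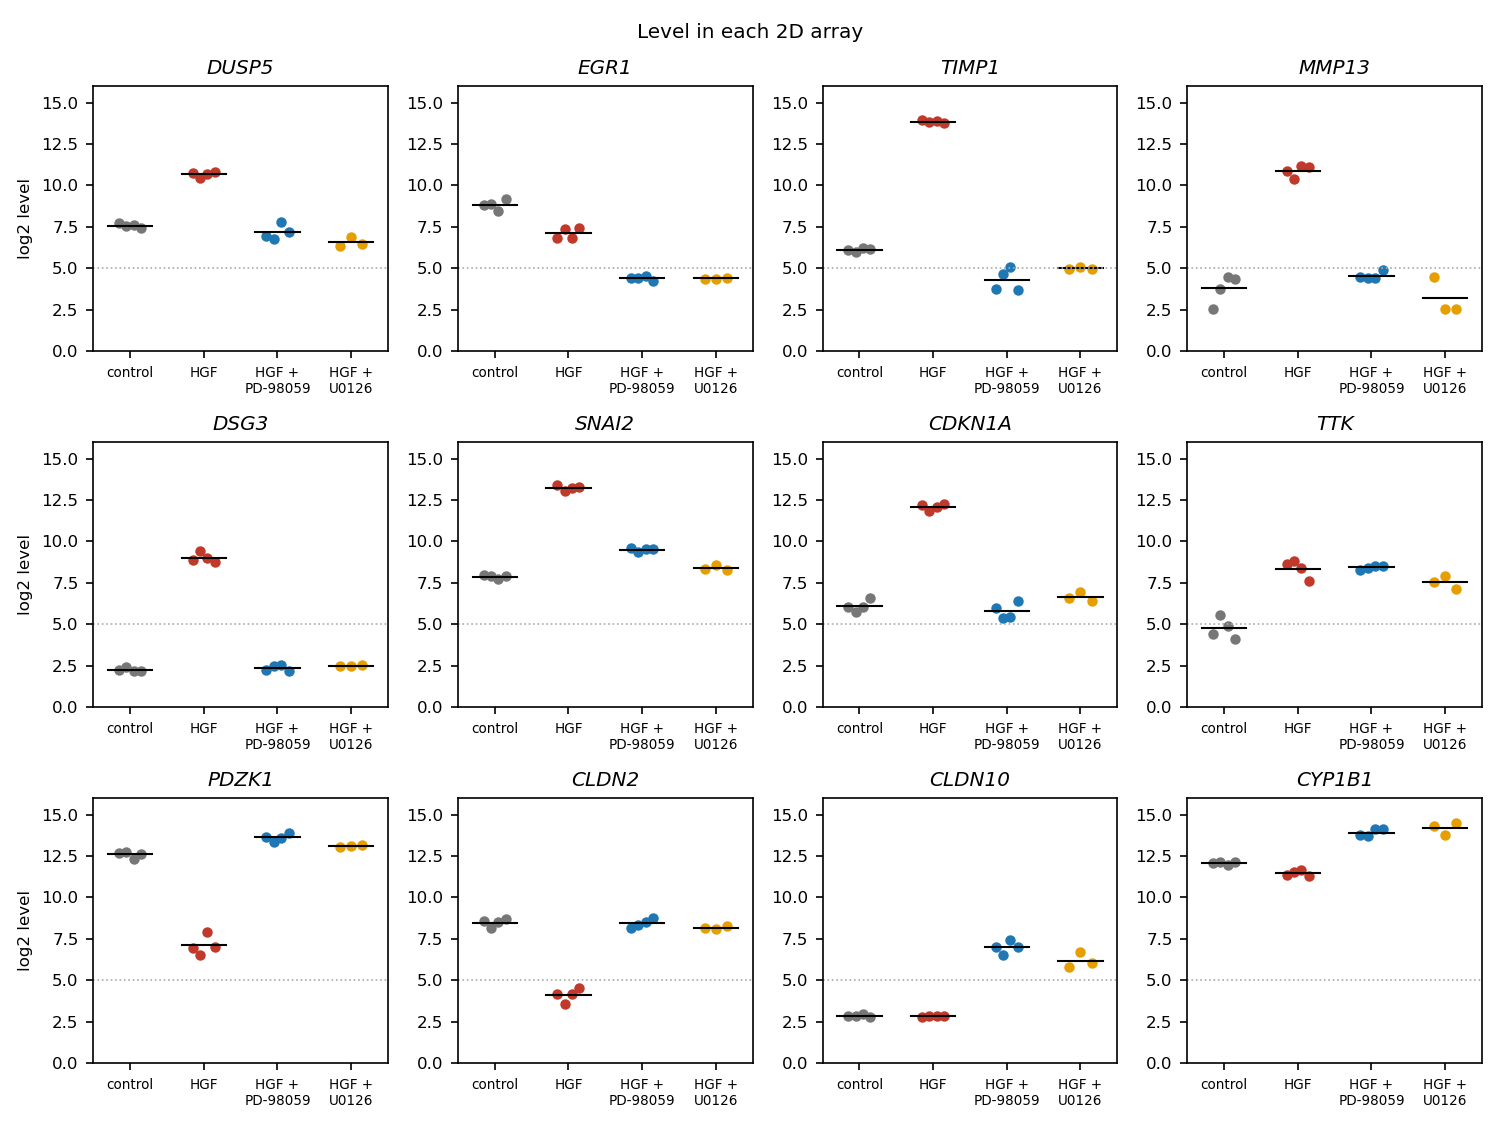
Log2 level (vertical axis) of 12 genes on each 2D array, in untreated cells, cells with HGF, cells with HGF and PD-98059, and cells with HGF and U0126, with a dot per array, a black bar at the group mean and a dotted line at log2 5. TIMP1 falls from a mean of 13.85 with HGF to 4.29 with PD-98059, EGR1 lies below its untreated level in both inhibitor groups, TTK overlaps between HGF with and without PD-98059, and CLDN10 and CYP1B1 exceed their untreated level.

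Secreted proteases and their inhibitors were mostly lower. Of 15 tested, 10 fell and 1 rose, with a median of -1.26. TIMP1, an inhibitor of matrix metalloproteinases, read 13.95, 13.84, 13.88 and 13.75 on the 4 HGF arrays and 3.75, 4.67, 5.09 and 3.67 on the 4 with PD-98059. No array came near the other group. TIMP1 fell by 9.56 ± 0.279 on the log2 scale (SE), with an adjusted p of 1.51e-19, to a mean that was dim. It ended below the untreated mean of 6.12 ± 0.114, by 1.82 (adjusted p = 1.86e-05).

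MMP13, a collagenase, read 10.88, 10.40, 11.18 and 11.15 with HGF and 4.49, 4.44, 4.43 and 4.92 with PD-98059, where the level was dim. It fell by 6.33 ± 0.342 (adjusted p = 2.55e-14). TFPI2, an inhibitor of serine proteases, read 10.15, 9.58, 9.45 and 10.002 with HGF and 4.05, 3.62, 3.79 and 3.74 with PD-98059, and fell by 6.0 ± 0.234 to a dim level. SERPINE2, an inhibitor of thrombin and plasminogen activators, read 12.86, 12.88, 13.02 and 12.98 with HGF and 9.77, 9.46, 9.65 and 9.83 with PD-98059. It fell by 3.26 ± 0.125 but stayed 1.70 above the untreated level (adjusted p = 7.21e-11). PLAU, the urokinase plasminogen activator, fell by 1.26 ± 0.249, to below the untreated level by 1.17. MMP1, an interstitial collagenase, fell by 2.34 ± 0.445 to a dim level at its brighter probe set, and MMP9 by 1.05 ± 0.244 at dim levels. SPINT2, an inhibitor of the proteases that activate HGF, rose by 0.30 ± 0.0994, and its call was lost in some of the alternative settings.

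Genes of the mesenchymal state were lower for 8 of 14 and higher for 1, with a median of -0.59. SNAI2 (Slug), a repressor of epithelial genes, read 13.40, 13.05, 13.22 and 13.28 with HGF and 9.61, 9.36, 9.53 and 9.54 with PD-98059. It fell by 3.73 ± 0.123 (13.2-fold, adjusted p = 1.42e-18), and the remaining level was 1.62 above that of untreated cells (adjusted p = 1.42e-10). CDH2, the N-cadherin, read 8.16, 7.77, 7.05 and 7.81 with HGF and 4.39, 4.12, 4.37 and 4.45 with PD-98059, and fell by 3.37 ± 0.224 to a dim level. S100A4 fell by 2.00 ± 0.124 and FN1, fibronectin, by 1.57 ± 0.129. VIM, the intermediate filament vimentin, was abundant in both groups and fell by 0.62 ± 0.0949.

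TGFBI, a secreted matrix protein, went the other way. It read 4.77, 4.94, 4.85 and 4.99 with HGF and 8.11, 7.95, 8.23 and 8.38 with PD-98059, against a mean of 5.14 ± 0.229 in untreated cells. The mean with HGF alone was dim. The rise was 3.28 ± 0.126 over HGF alone and 3.02 ± 0.126 over untreated cells, so the level was not one seen in either of those groups.

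Epithelial junction and polarity genes split, with 7 of 24 up, 10 down and a median of -0.22. Of all genes, 27.0% rose and 26.9% fell. CLDN2, the claudin of cation-permeable tight junctions in the proximal tubule, read 4.19, 3.60, 4.16 and 4.54 with HGF and 8.18, 8.34, 8.54 and 8.78 with PD-98059. It rose by 4.34 ± 0.2 (adjusted p = 1.02e-15) from a dim level, and the difference from untreated cells was -0.03 ± 0.2 (adjusted p = 0.94). CLDN10, another claudin of the kidney tubule, read 2.81, 2.83, 2.86 and 2.88 with HGF and 7.02, 6.53, 7.46 and 7.04 with PD-98059. It was dim in untreated cells too, at a mean of 2.86 ± 0.0796, and so rose by 4.15 ± 0.162 over them as well. CGN, the tight junction protein cingulin, rose by 0.78 ± 0.161.

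Other junction genes fell. CTNND1 (p120 catenin), which holds cadherins at the membrane, fell by 3.02 ± 0.182 to a dim level. CLDN4 fell by 2.58 ± 0.213, PARD3, a polarity scaffold, by 1.47 ± 0.0721, and CLDN3 by 1.15 ± 0.16. CLDN4, PARD3 and CLDN3 ended below their untreated levels, by 0.98, 0.50 and 0.64. CDH16, a cadherin of kidney epithelium, read 12.45 ± 0.168 with HGF and 12.25 ± 0.429 with PD-98059 and did not pass the threshold (adjusted p = 0.307). CDH1, E-cadherin, was not tested, since its highest value on any array was 3.84, which does not show that its RNA was absent.

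Desmosome and hemidesmosome genes had the lowest median of the lists, at -2.13, with 13 of 14 lower and none higher. Against untreated cells, 6 of the 14 were lower with HGF and PD-98059 and 1 was higher, with a median of -0.39, where 12.3% of all genes were lower and 14.3% higher. DSG3, a desmosomal cadherin of stratified epithelia, read 8.90, 9.40, 8.98 and 8.77 on the HGF arrays and 2.23, 2.50, 2.52 and 2.18 with PD-98059, where it was dim, as it was in untreated cells at 2.25 ± 0.118. It fell by 6.65 ± 0.171 (adjusted p = 1.33e-20). LAMA3, a chain of laminin-332 in hemidesmosomes, read 15.24, 15.23, 15.15 and 15.17 with HGF and 10.80, 10.61, 10.78 and 10.92 with PD-98059, and fell by 4.42 ± 0.11 (21.4-fold, adjusted p = 6.19e-21). S100A2, a calcium-binding protein of basal keratinocytes, fell from 14.94, 14.96, 14.91 and 14.83 to 8.89, 8.89, 8.95 and 9.11, a fall of 5.95 ± 0.114. ITGA6, the integrin partner of ITGB4 in hemidesmosomes, fell by 4.07 ± 0.082 at its brightest probe set, and its 4 tested probe sets ranged from -5.96 to 0.04.

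Integrins and other adhesion receptors were lower for 11 of 15 and higher for 3, with a median of -0.81. ITGB6, which pairs with the integrin alpha V chain and binds latent TGF-beta, read 11.68, 11.48, 11.52 and 11.55 with HGF, 9.47, 9.40, 9.29 and 9.49 with PD-98059 and 11.62, 11.65, 11.49 and 11.50 on the untreated arrays. It fell by 2.15 ± 0.13 against HGF alone and lay 2.16 below untreated cells. ITGA2, a collagen receptor subunit, fell by 2.00 ± 0.305, CD44, the hyaluronan receptor, by 1.83 ± 0.141, and SDC4, a heparan sulphate proteoglycan, by 1.64 ± 0.135. ITGA1, another collagen receptor subunit, rose by 1.46 ± 0.265.

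Actin cytoskeleton and YAP target genes were lower for 13 of 17 and higher for 1, with a median of -1.002. ACTN1, an actin cross-linker, read 8.47, 8.11, 8.46 and 7.57 with HGF and 4.36, 5.01, 4.20 and 4.18 with PD-98059 and fell by 3.71 ± 0.27 to a dim level. CAPG, which caps actin filaments, fell by 2.27 ± 0.0928, MYH9, a non-muscle myosin heavy chain, by 1.86 ± 0.198, and FLNA, filamin A, by 1.75 ± 0.179. CCN2, a secreted YAP target, was the exception, with a rise of 0.51 ± 0.139 that was lost in some of the alternative settings.

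Genes of the G1 phase, of DNA replication and of mitosis were set against all genes, of which 27.0% rose and 26.9% fell. Of 12 G1 genes, 5 rose and 4 fell, with a median of 0.01. CDKN1A, the cyclin-dependent kinase inhibitor p21, read 12.18, 11.81, 12.06 and 12.26 with HGF and 5.998, 5.40, 5.43 and 6.43 with PD-98059. It fell by 6.27 ± 0.193 (76.9-fold, adjusted p = 3.81e-19), to a level that differed from the untreated one by -0.29 ± 0.193 (adjusted p = 0.301). CCND1, cyclin D1, which opens the G1 phase, read 12.78, 12.43, 12.59 and 12.74 with HGF and 10.42, 10.39, 9.995 and 10.61 with PD-98059 and fell by 2.28 ± 0.117 (adjusted p = 8.26e-15). CCND2 fell by 2.00 ± 0.0865 and CDKN2B, the inhibitor p15, by 3.41 ± 0.168 to a dim level. The 5 risers included CDKN2C, the inhibitor p18, at 1.23 ± 0.148, CDKN2D, the inhibitor p19, at 0.89 ± 0.127, CCNE1, cyclin E1, at 0.81 ± 0.11, and RBL2, the pocket protein p130, at 0.46 ± 0.114.

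Of 42 tested DNA replication genes, 10 rose and 8 fell, with a median of 0.10, where 27.0% of all genes rose and 26.9% fell. With the RNA-quality index as a covariate, 15 rose and 7 fell. Against untreated cells, 35 of the 42 were higher with HGF and PD-98059 and none was lower, with a median of 1.06, where 14.3% of all genes were higher and 12.3% lower. CDC6, which loads the replicative helicase, read 8.42, 8.53, 8.36 and 8.36 with HGF, 7.35, 7.11, 6.92 and 7.20 with PD-98059 and 4.71, 4.28, 4.34 and 3.55 on the untreated arrays. It fell by 1.27 ± 0.18 against HGF alone and still lay 2.93 above untreated cells. CDC45, CDT1 and ORC1, which act at replication origins too, fell by 1.06, 0.96 and 0.76. PCNA, the sliding clamp of DNA polymerases, rose by 0.75 ± 0.117, and RPA3, POLD3 and RPA2 rose by 0.87, 0.82 and 0.64.

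Of 37 tested mitosis genes, 3 rose and 5 fell with PD-98059, with a median of -0.03. Both shares lie below those of all genes, 27.0% and 26.9%. Against untreated cells, 30 were higher and none was lower, with a median of 2.08, where 14.3% of all genes were higher and 12.3% lower. TTK, a spindle checkpoint kinase, read 8.63, 8.81, 8.41 and 7.64 with HGF and 8.31, 8.38, 8.51 and 8.52 with PD-98059, ranges that overlapped, and 4.43, 5.54, 4.91 and 4.15 on the untreated arrays. NEK2, a centrosomal kinase, rose by 1.03 ± 0.216, CCNB2, cyclin B2, by 0.69 ± 0.123 and CDC20, an activator of the anaphase promoting complex, by 0.45 ± 0.14. KIF23, a kinesin of the midbody, fell by 0.72 ± 0.122. The falls of PRC1, AURKA and UBE2C, of 0.51, 0.34 and 0.32, were lost in some of the alternative settings. With the RNA-quality index as a covariate, 7 mitosis genes rose and 1 fell, and with the replicate number as a block 3 fell. The number that fell was 1 without HGF array 1, 1 without HGF array 2, 3 without HGF array 3, 1 without PD-98059 array 1 and 2 without PD-98059 array 2. Without the last of these arrays 5 rose.

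**Figure D3:**
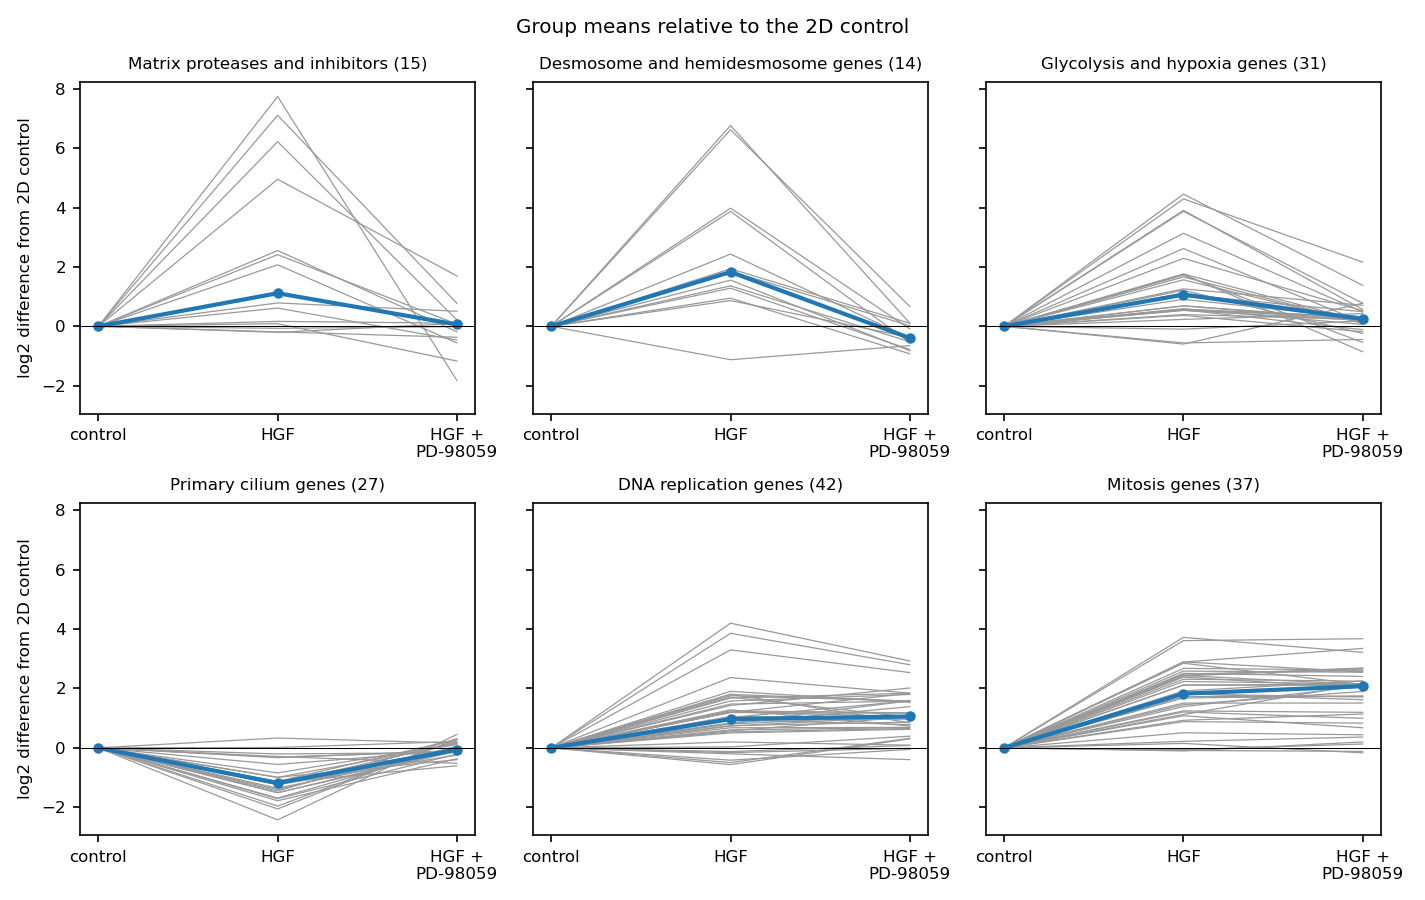
Mean log2 level minus the 2D untreated mean (vertical axis) in untreated cells, cells with HGF, and cells with HGF and PD-98059, all in 2D. The 6 panels are gene lists, with a grey line per gene and the list's median in blue. With PD-98059 the medians of the desmosome and cilium lists lie at -0.39 and -0.06, with desmosome genes on both sides of 0, whereas those of the replication and mitosis lists lie at 1.06 and 2.08.

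Most genes of the primary cilium rose. Of 27 tested, 21 rose and none fell, with a median of 1.13. HGF alone had lowered 23 of them and raised 1 against untreated cells, where 27.5% of all genes fell and 29.1% rose, a comparison that shares the HGF arrays. RPGRIP1L, a protein of the transition zone at the base of the cilium, read 3.91, 3.55, 3.25 and 3.56 with HGF, which is dim, and 6.46, 6.13, 6.46 and 6.73 with PD-98059. It rose by 2.88 ± 0.176 (adjusted p = 3.02e-13). TCTN2, another transition zone protein, read 8.98, 8.99, 9.09 and 8.64 with HGF and 11.32, 11.09, 11.22 and 11.48 with PD-98059, and rose by 2.35 ± 0.108. IFT140, a subunit of the retrograde transport complex of cilia, rose by 2.23 ± 0.357 and IFT57, of the anterograde complex, by 1.76 ± 0.0957. Against untreated cells, 2 of the 27 were higher and 3 lower, where 14.3% of all genes were higher and 12.3% lower.

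DRC1, a subunit of the dynein regulatory complex of motile cilia that is not on the list, read 3.57, 3.33, 3.60 and 3.62 with HGF and 7.77, 7.68, 8.16 and 7.99 with PD-98059. It rose by 4.37 ± 0.184 from a dim level and lay 0.81 below untreated cells (adjusted p = 0.00167).

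Kidney tubule transport genes were higher for 8 of 16 and lower for 2, with a median of 0.44. PDZK1, a scaffold of transporters in the proximal tubule brush border, has 2 probe sets, both higher. The one with the larger difference read 4.82, 4.70, 6.75 and 5.43 with HGF and 12.78, 12.84, 13.13 and 13.14 with PD-98059, and rose by 7.55 ± 0.284 (187-fold, adjusted p = 2.07e-17), the largest rise among the named genes. Of its HGF values, 4.82 and 4.70 lay under log2 5, so the fold is uncertain. The brighter one rose by 6.51 ± 0.2 and lay 1.02 above untreated cells. CLTRN (collectrin), which helps amino acid transporters reach the membrane, read 4.07, 4.06, 4.56 and 4.32 with HGF and 9.57, 9.80, 9.94 and 9.86 with PD-98059 and rose by 5.54 ± 0.31 from a dim level. SCTR, the secretin receptor, rose by 4.23 ± 0.209, also from a dim level, and SLC22A5, a carnitine transporter, by 1.26 ± 0.218. SLC12A2, the sodium, potassium and chloride cotransporter NKCC1, fell by 0.49 ± 0.13, to 1.497 below untreated cells. Against untreated cells, 1 of the 16 genes was higher and 6 were lower, with a median of -0.25. Of all genes, 14.3% were higher and 12.3% lower in that comparison.

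Glycolysis and hypoxia genes fell for 25 of 31 and rose for 1, with a median of -0.64. PFKFB3, which makes the activator of phosphofructokinase, read 11.92, 11.72, 11.76 and 11.91 with HGF and 8.64, 8.61, 7.82 and 8.89 with PD-98059, and fell by 3.34 ± 0.173 (10.1-fold, adjusted p = 1.1e-14). ERO1A, an oxidase of protein folding that hypoxia induces, read 14.02, 13.90, 13.78 and 13.85 with HGF and 10.81, 10.61, 10.84 and 10.92 with PD-98059. It fell by 3.09 ± 0.0887 but lay 0.78 above untreated cells. EGLN3, a prolyl hydroxylase of HIF, fell by 3.07 ± 0.391 and PFKP, a phosphofructokinase, by 2.65 ± 0.12. VLDLR, a lipoprotein receptor on this list, rose by 1.38 ± 0.125. Against untreated cells 13 of the 31 were higher and 3 lower, where 14.3% of all genes were higher and 12.3% lower.

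Cholesterol synthesis and uptake genes were lower for 15 of 21 and higher for 1, with a median of -0.66. Against untreated cells, however, 15 were higher and none lower, with a median of 0.63, where 14.3% of all genes were higher and 12.3% lower. INSIG1, which holds the sterol regulators in the endoplasmic reticulum, read 11.78, 11.51, 11.53 and 11.68 with HGF and 9.43, 8.90, 9.28 and 9.29 with PD-98059, against 7.89, 7.68, 8.34 and 8.11 in untreated cells. It fell by 2.40 ± 0.128 (adjusted p = 1.97e-14) to a level between the other groups. FDFT1 (squalene synthase), SC5D and CYP51A1, enzymes of the later steps, fell by 1.18, 1.05 and 0.998. TMEM97, a sterol-regulated membrane protein, rose by 1.38 ± 0.0967. Of 11 fatty acid synthesis genes, 3 rose and 6 fell. ELOVL1 fell by 1.87 ± 0.0924 and ELOVL6, another elongase, rose by 1.93 ± 0.347 from a dim level.

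ATF4 and unfolded protein stress genes fell for 17 of 23 and rose for 2, with a median of -0.57. DDIT3 (CHOP), a transcription factor of the stress response, read 9.86, 9.62, 9.74 and 10.26 with HGF and 6.02, 6.46, 6.603 and 6.66 with PD-98059, and fell by 3.44 ± 0.145 (10.8-fold, adjusted p = 2.01e-16). MTHFD2 and SHMT2, mitochondrial enzymes of one-carbon metabolism, fell by 2.76 ± 0.299 and 1.26 ± 0.103. WARS1, a tRNA synthetase, fell by 1.84 ± 0.12. Of 31 ribosome biogenesis and MYC target genes, 5 rose and 8 fell, with a median of -0.14, and both shares lie below those of all genes. PES1, a ribosome assembly factor, rose by 1.54 ± 0.14 and SRM, spermidine synthase, fell by 0.74 ± 0.164.

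Of 18 inflammatory and prostaglandin genes, 2 rose and 5 fell, with a median of -0.04, where 27.0% of all genes rose and 26.9% fell. PTGS2, the inducible cyclooxygenase COX-2, read 12.16, 11.93, 12.20 and 12.29 with HGF and 9.004, 8.43, 8.72 and 9.07 with PD-98059, and fell by 3.34 ± 0.233 (10.1-fold, adjusted p = 4.06e-12). The level left was 2.42 above that of untreated cells, whose 4 arrays read 6.59, 6.02, 6.11 and 6.83. ICAM1, an adhesion molecule for leukocytes, fell by 1.39 ± 0.149 and BIRC3, an inhibitor of apoptosis induced by NF-kappaB, by 1.55 ± 0.148. ACKR3, a scavenger receptor for chemokines, rose by 1.76 ± 0.189 from a dim level, to 2.88 above untreated cells.

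Genes of the aryl hydrocarbon receptor (AhR) and of xenobiotic metabolism were higher for 6 of 13 and lower for 2, with a median of 0.62. The AhR is a ligand-activated transcription factor that induces enzymes of drug metabolism. CYP1B1, a cytochrome P450 induced by AhR, read 11.37, 11.53, 11.65 and 11.29 with HGF and 13.75, 13.68, 14.13 and 14.11 with PD-98059, against 12.09, 12.14, 11.93 and 12.14 in untreated cells. All 4 arrays with PD-98059 were above both other groups, and CYP1B1 rose by 2.46 ± 0.201 over HGF alone (adjusted p = 8.52e-11) and by 1.84 ± 0.201 over untreated cells. TIPARP, an AhR target that represses the receptor, read 8.42, 9.56, 9.54 and 9.37 with HGF and 9.99, 11.13, 11.35 and 10.71 with PD-98059 and rose by 1.58 ± 0.38 (adjusted p = 0.00103). With U0126, their means were 14.18 ± 0.368 and 10.71 ± 0.643 (SD, n = 3), and neither differed between the inhibitors past the threshold. CYP1A1 had no probe set assigned to a single gene.

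EPHX1, the microsomal epoxide hydrolase, rose by 3.55 ± 0.222 and SULT1A1, a sulphotransferase for phenols, by 1.90 ± 0.116. Both lay above the untreated level, by 1.46 and 0.65. MGST1, a microsomal glutathione transferase outside the list, rose from 4.65, 4.64, 4.61 and 4.70 to 9.79, 9.18, 10.27 and 9.81, a rise of 5.11 ± 0.285 from a dim level. ABCB1, an efflux pump for drugs, fell by 2.31 ± 0.113. Its paralog ABCB4 fell by 5.52 ± 0.18, to a dim level, at the probe set with the larger difference and by 4.76 at the brighter one. NQO1, a target of both NRF2 and AhR, read 12.42, 12.35, 12.22 and 12.26 with HGF and 12.47, 12.08, 12.73 and 12.63 with PD-98059. The difference of 0.17 ± 0.103 did not pass (adjusted p = 0.184), and the level stayed 3.38 above untreated cells (adjusted p = 7.04e-18).

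Apoptosis regulators fell more often than they rose, and genes of growth restraint moved both ways. Of all genes, 27.0% rose and 26.9% fell. Of 13 apoptosis regulators, 7 fell and 1 rose, with a median of -0.34. BCL2A1, a survival protein of the BCL2 family, fell by 2.90 ± 0.121, MCL1 by 0.87 ± 0.0965 and BCL2L1 by 0.60 ± 0.139, while BCL2 itself rose by 1.44 ± 0.227. BCL2L11 (BIM), a killer protein that ERK is known to restrain, did not reach log2 5 on 3 arrays and was not tested. Of 12 genes of growth restraint, FOXO and mTOR regulation, 4 rose and 6 fell. DEPTOR, an inhibitor of mTOR, read 4.93, 6.90, 7.24 and 6.68 with HGF and 10.79, 10.72, 10.99 and 11.01 with PD-98059, and rose by 4.44 ± 0.429 (21.7-fold, adjusted p = 1.99e-09). TXNIP, which binds thioredoxin and limits glucose uptake, rose by 3.17 ± 0.111 at its brighter probe set. EIF4EBP1, a repressor of translation, fell by 2.31 ± 0.107, and FOXO3 and FOXO1 fell by 1.32 and 1.19.

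ISG20, an exonuclease that interferon induces, read 9.08, 8.70, 8.64 and 8.80 with HGF and 1.64, 1.60, 1.66 and 1.63 with PD-98059, and fell by 7.17 ± 0.0977 (adjusted p = 1.74e-26). The level with PD-98059 was dim. The 4 untreated arrays read 1.66, 1.64, 1.67 and 1.64, so among the 2D groups described here the gene was above log2 5 with HGF alone. Its 4 HGF arrays were enough to pass the filter, so its p-value is not independent of the filter. ENTPD3, an ectonucleotidase, fell by 6.32 ± 0.265, and RGS2, a regulator of G protein signalling, by 5.92 ± 0.321 at the probe set with the largest difference of its 3, which ranged from -5.92 to -0.10. SNAP91, an endocytic adaptor, fell by 5.60 ± 0.172, OLFM1 by 5.29 ± 0.298, BAIAP2L1, which bends membranes around actin, by 5.24 ± 0.317 and CDC42EP5, an effector of CDC42, by 5.08 ± 0.405. The values of BAIAP2L1 and CDC42EP5 are those of the probe set with the larger difference, and their brighter probe sets fell by 4.05 and 4.24. ENTPD3, SNAP91, OLFM1, BAIAP2L1 and CDC42EP5 were all dim with PD-98059 at the probe sets first given.

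Of the 15 largest rises, RIPPLY1, a transcriptional repressor, read 7.23, 6.93, 8.47 and 7.59 with HGF and 12.57, 12.69, 13.20 and 12.92 with PD-98059, and rose by 5.29 ± 0.21 (39.1-fold, adjusted p = 6.16e-17). GPR18, a G protein-coupled receptor, rose by 4.92 ± 0.212, from a dim level. FABP1, the liver-type fatty acid binding protein, read 2.73, 3.47, 3.40 and 2.75 with HGF and 7.48, 7.57, 8.23 and 7.61 with PD-98059 and rose by 4.64 ± 0.232 from a dim level. FABP1 was dim in untreated cells as well, at 3.51 ± 0.287. CCDC30, RGS22, C9H17orf97, TEX26, AK8, an adenylate kinase, and RANBP3L rose by 5.27, 4.78, 4.63, 4.62, 4.55 and 4.34. These 6 were all dim with HGF alone and above log2 5 in untreated cells. For CCDC30 and RANBP3L these are the probe sets with the largest difference, and their brightest probe sets rose by 4.22 and 3.56.

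How far PD-98059 brought HGF-treated cells back to the untreated state was measured directly against the 4 untreated 2D arrays, a comparison that shares the PD-98059 arrays with the comparison against HGF alone. Of 16571 probe sets, 2075 (12.5%) were higher with HGF and PD-98059 than without either, and 2161 (13.0%) were lower. Among the named genes, FABP1, CLDN10, TGFBI, ACKR3, DKK3 and NQO1 were higher than untreated by 4.22, 4.15, 3.02, 2.88, 3.94 and 3.38. The genes below it included EGR1, by 4.43, ITGB6, by 2.16, ITGA2, by 1.66, ABCB1, by 1.43, and CDKN2B, by 1.27. Epithelial junction genes were lower than untreated for 11 of 24 and higher for 1, and integrins and adhesion receptors were lower for 8 of 15 and higher for none. By gene, 12.3% of all were lower and 14.3% higher in this comparison.

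The 3D arrays share none with the 2D comparison and allow the difference between the 2 effects of PD-98059 to be tested. In 3D, 4408 probe sets (26.6%) were higher and 2557 (15.4%) lower with PD-98059. Of the 4566 higher in 2D, 2593 were higher in 3D too, which is 56.8% of the 2D set and 58.8% of the 3D set. Of the 4124 lower in 2D, 1497 were lower in 3D, 36.3% of the 2D set and 58.5% of the 3D set, while 433 were higher there. Across probe sets the effects correlated with a Pearson r of 0.569 and a Spearman rho of 0.529, a description over features that share the same arrays.

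The effect itself differed for 5674 probe sets (34.2%), with a more positive effect in 2D for 2030 (12.3%) and a more negative one for 3644 (22.0%). After quantile normalization these counts were 2904 and 3391, and after centring each array on its median 2737 and 3278, so the size of the excess of more negative effects depends on the scaling. The 4 HGF arrays in 3D correlated less well with each other, down to 0.9641, and their RNA-quality index ranged from 1.09 to 2.46, against 1.62 to 1.67 with PD-98059 in 3D. Without 3D HGF arrays 1 and 4, left out after seeing the data, the counts were 2284 and 3311.

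Among the lists, the glycolysis and hypoxia genes had an effect more negative in 2D for 22 of 31 and more positive for 1, with a median difference between the effects of -1.48 against -0.08 over all genes. Of all genes, 24.4% had an effect more negative in 2D and 11.6% a more positive one. In 3D, 9 of the 31 were higher and 5 lower, where 28.9% of all genes were higher and 15.2% lower. Actin and YAP genes were more negative in 2D for 13 of 17, desmosome genes for 11 of 14 and inflammatory genes for 12 of 18. Of those 18 inflammatory genes, 9 rose and 1 fell in 3D, with a median of 0.47. In 2D, 2 of them rose and 5 fell, with a median of -0.04. Ribosome biogenesis genes went the other way, with 13 of 31 more positive in 2D and none more negative, and 22 of them fell in 3D. Cilium genes rose in both, 21 of 27 in 2D and 22 in 3D.

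ISG20 had the most negative difference between the effects, -7.15 ± 0.144 (adjusted p = 2.71e-22), and its 3D means were 1.72 ± 0.0355 (SD, n = 4) with HGF and 1.71 ± 0.00914 (SD, n = 3) with PD-98059. This p-value too rests on the 2D HGF arrays through which ISG20 passed the filter. TFPI2 fell by 6.0 in 2D and rose by 1.01 in 3D. DDX60, a helicase of antiviral defence, read 9.53, 9.32, 9.31 and 9.36 with HGF and 4.63, 4.52, 4.56 and 4.60 with PD-98059 in 2D, a fall of 4.80 ± 0.16 to a dim level, and its 3D effect was 0.09 ± 0.173. CXCL8 and CCL7, chemokines for neutrophils and monocytes, were dim in all 2D groups and rose by 5.27 and 4.84 in 3D. CCL17, a chemokine for T cells, fell by 2.92 ± 0.24 in 2D and rose by 1.78 in 3D.

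On the other side, MMP1 fell by 6.21 in 3D and by 0.83 in 2D at the probe set with the largest difference, where it was dim in every 2D group. TXNIP at its second probe set rose by 4.93 ± 0.479 in 2D and showed -0.35 ± 0.517 in 3D. CLTRN, GPR18, STEAP2 and C9H17orf97 rose by 5.54, 4.92, 4.20 and 4.63 in 2D, and their 3D effects were 0.45, -0.09, -0.59 and 0.01, none past the threshold. STEAP2 is a metalloreductase.

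**Figure D4:**
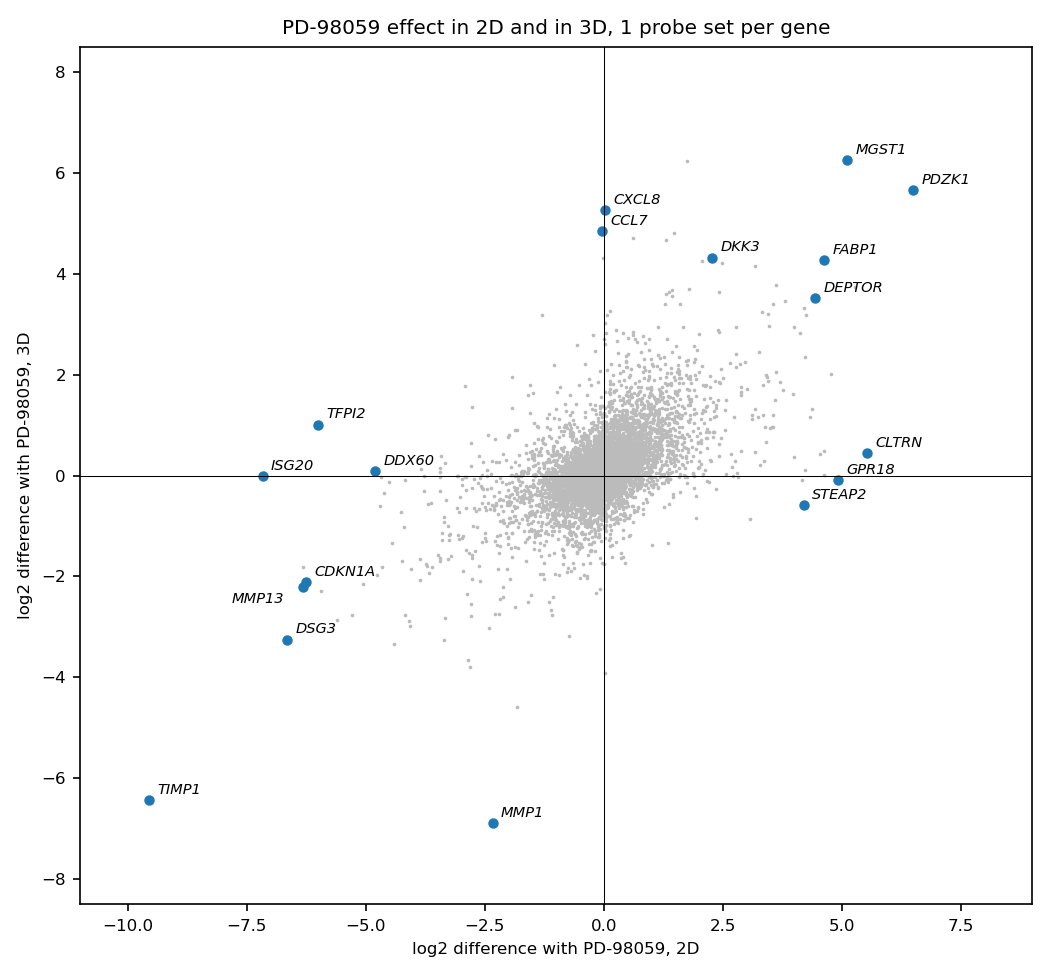
Log2 effect of PD-98059 on HGF-treated cells in 2D (horizontal axis) and in 3D (vertical axis), with a dot for each of 7052 genes and named genes in blue. TIMP1 and PDZK1 lie far along the diagonal in the same direction in both cultures, whereas ISG20 lies near 0 in 3D and CXCL8 near 0 in 2D.

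PD-98059 and U0126, the 1 pair of compounds compared, differed for few probe sets in HGF-treated 2D cells. Neither dose is given in the sources used here, so whether they match is unknown. Between the 4 arrays with PD-98059 and the 3 with U0126, 129 probe sets (0.778%) were higher with PD-98059 and 140 (0.845%) were lower. These counts move with single arrays and settings. The number higher was 208 without PD-98059 replicate 2, 82 without PD-98059 replicate 4 and 70 without U0126 replicate 1, and the number lower was 86 without U0126 replicate 2 and 75 without U0126 replicate 3. Against the shared HGF arrays, U0126 gave 4269 probe sets (25.8%) higher and 4026 (24.3%) lower.

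For most named genes, the difference between the inhibitors missed the threshold, which does not show that they act alike. The 95% interval of the difference was 0.17 to 1.05 for DUSP5, -0.59 to 0.62 for EGR1, -1.33 to -0.09 for TIMP1, -0.52 to 0.24 for DSG3, -0.32 to 0.20 for CCND1 and 0.10 to 0.99 for PDZK1 at its brighter probe set. It was -0.71 to 0.18 for CYP1B1 and -0.76 to 0.93 for TIPARP. The intervals for DUSP5, TIMP1 and PDZK1 do not include 0 but carry no correction for the number of probe sets, and their adjusted p-values were 0.195, 0.351 and 0.289.

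Some genes did differ. DKK3, a secreted protein related to WNT inhibitors, read 7.501, 7.95, 7.91 and 8.06 with PD-98059 and 4.73 ± 0.457 (mean ± SD, n = 3) with U0126, a difference of 3.13 ± 0.249 (SE, adjusted p = 2.33e-08). It exceeded its HGF level by 2.28 with PD-98059. FGFBP1, which carries fibroblast growth factors, was 2.27 higher with PD-98059 than with U0126, HEPH, a copper-dependent ferroxidase, 1.92 higher, and ANGPTL4, an inhibitor of lipoprotein lipase, 1.58 higher. These 3 had fallen from their HGF level with both inhibitors, and less so with PD-98059. SYT13, of the synaptotagmin family, and GPR18 rose with both and were 2.17 and 1.69 higher with PD-98059. SYT13 was dim with HGF alone and with U0126.

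Lower with PD-98059 than with U0126 were HOGA1, a mitochondrial enzyme of hydroxyproline breakdown, by 1.74, IL13RA2, a decoy receptor for IL-13, by 1.65, C2, a complement protease, by 1.42, CLIC3 by 1.35, GDPD3 by 1.30 and DDX39B, an RNA helicase, by 1.29. HOGA1, IL13RA2 and CLIC3 were dim with PD-98059, and HOGA1 was dim with U0126 too. SNAI2 and S100A4 were 1.09 and 1.05 higher with PD-98059 (adjusted p = 1.4e-05 and 2.71e-05), FOS 0.57 higher and DUSP6 0.54 higher (adjusted p = 0.00196 and 0.00233). DUSP6 fell by 0.72 ± 0.0989 with U0126.

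By gene, 0.922% of all genes were higher and the same share lower with PD-98059 than with U0126. Of 37 mitosis genes, 5 were higher with PD-98059 than with U0126 and none lower, and the median difference was 0.47 against 0.02 over all genes. U0126 had lowered 17 of the 37 and raised 1 against HGF alone, where 26.8% of all genes were lower and 25.0% higher, and PD-98059 had lowered 5, comparisons that share the HGF arrays. The 5 genes were AURKA, CCNB2, KIF23, NCAPG and NUSAP1, the last pair named after their values were seen, with differences of 0.77, 0.70, 0.56, 0.62 and 0.57. Of 21 cholesterol genes, 5 were higher with PD-98059 and none lower, with a median of 0.31. They were INSIG1 and CYP51A1, at 0.69 and 0.33, and DHCR7, FDPS and EBP, named after their values were seen, at 0.94, 0.50 and 0.38. Of 42 replication genes none passed in either direction, with a median of 0.32.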

How the data were processed

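RNA of dog kidney MDCK cells was measured on Affymetrix canine arrays. Per probe set the authors deposited a log2 level, made with Affymetrix Expression Console 1.1, GCRMA, MAS5 and Partek 6.6, per the submitters' processing notes, which do not give the role of each, and used without further normalization. The number of arrays limits the precision. No column belonged to an unlisted sample. Of 43035 probe sets, 111 Affymetrix controls were set aside, and 16571 of the others reached log2 5 on at least 3 of 29 arrays. Of these, 12186 have 1 gene in the platform annotation, 11568 of them matched by gene identifier to RefSeq, 238 have several and 4147 none.

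Tests used limma 3.58.1 (R 4.3.3). A linear model of 8 group means was fitted over all 29 arrays with lmFit and moderated by eBayes with a variance trend, and the two-sided p-values got Benjamini-Hochberg adjustment within each comparison. The fit was tested on simulated data. Groups come from the labels, and folds are 2 to the power of the log2 difference. Lists use the probe set with the highest mean over 29 arrays.

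Genes are named by rule. The rule takes the 15 largest differences in each direction whose arrays do not overlap, the 6 largest in each direction between cultures and between inhibitors, up to 4 per list and direction, and 45 fixed genes, of which 32 were tested. The members and the 28 lists, with 861 genes of which 540 were tested, were chosen with earlier results of these data known. Filters, scaling, weights, blocks and left-out arrays were varied as alternatives.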

Additional observations from a re-analysis of the deposited data

Results flagged for a closer look

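The effect of PD-98059 differed between 2D and 3D for 5674 probe sets by limma's test of the difference at an adjusted p under 0.05. The 12 genes named for it had these values of the 2D minus the 3D effect on the log2 scale. It was 5.38 for MMP1, 5.28 for TXNIP, 5.09 for CLTRN, 5.01 for GPR18, 4.79 for STEAP2 and 4.62 for C9H17orf97. It was -7.15 for ISG20, -7.01 for TFPI2, -5.24 for CXCL8, -4.89 for DDX60, -4.87 for CCL7 and -4.70 for CCL17.

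Among 110 groups of 4 arrays of named genes, 10 held an array whose gap to its nearest neighbour, as a share of the range, was above Dixon's critical value, where chance gives about 1 in 20. With HGF, C9H17orf97 read 1.76 on replicate 2 (nearest 2.54), DRC1 3.33 on replicate 2 (nearest 3.57), GPR18 2.47 on replicate 4 (nearest 2.37), MMP9 3.41 on replicate 2 (nearest 3.96) and TIPARP 8.42 on replicate 1 (nearest 9.37). With PD-98059, ABCB4 read 4.62 on replicate 4 (nearest 4.18), FABP1 8.23 on replicate 3 (nearest 7.6), MMP13 4.92 on replicate 4 (nearest 4.49), MMP9 3.12 on replicate 3 (nearest 2.7) and PLAU 4.52 on replicate 2 (nearest 5.58). Most of these levels are dim.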

How the results depend on the processing

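The counts of PD-98059 against HGF alone, 4566 higher and 4124 lower, stayed within 1.5 times under every alternative run except the size threshold. With at least 2-fold they were 1415 and 1441, and leaving out 1 array in turn gave 4080 to 4662 higher and 3723 to 4226 lower. Against untreated cells the counts were 425 and 502 with at least 2-fold, and 1575 to 2281 and 1612 to 2258 with 1 array left out. For the difference between cultures they were 693 and 1592, and 1677 to 2295 and 3077 to 3902. For PD-98059 against U0126 they were 32 and 27 with at least 2-fold, 37 and 32 with the compared groups alone, 241 and 253 after quantile normalization, 197 higher after median centring, 243 and 276 with array weights, and 241 and 230 with the RNA-quality covariate, while leaving out 1 array gave 70 to 208 higher and 75 to 167 lower; the cause was not tested. The RNA-quality difference was -0.125 from EEF1A1 alone, and 0.51 to 0.554 with 1 array left out. Same-numbered arrays of the 2 groups correlated at 0.323, 0.123, 0.038 and 0.067 in their deviations from the group means, and not every HGF array correlated best with its own number, so the numbers were not taken to pair them. With a replicate block the counts were 4537 and 4087 for PD-98059 against HGF, 2023 and 2131 against untreated cells, 1976 and 3599 between cultures and 112 and 133 between inhibitors. Of 215 named probe sets, 209 passed, 195 of these did so in the same direction under every alternative, and 0 reversed; those that lost a call in some alternative include AURKA, PRC1, UBE2C, CCN2, ID3 and SPINT2. Among the 3633 genes that several tested probe sets measure, 30 had both a higher and a lower call. List medians changed sign for G1 genes (-0.06 to 0.11) and mitosis genes (-0.08 to 0.06). Dim levels, and the unstated doses and times, limit the folds and the comparison of inhibitors.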

Other observations

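Oxidative phosphorylation genes were higher with PD-98059 for 12 of 22 and lower for none, with a median of 0.26, in limma's comparison with HGF alone, where 27.0% of all genes were higher and 26.9% lower. CYC1, a subunit of complex III, read 9.83, 9.46, 9.97 and 9.53 with HGF and 10.63, 10.46, 10.53 and 10.95 with PD-98059, without overlap, and rose by 0.94 ± 0.118 (SE, adjusted p = 1.78e-07). CYCS, cytochrome c, rose by 0.71 ± 0.105, SDHB, of complex II, by 0.58 ± 0.096 and NDUFA9, of complex I, by 0.57 ± 0.111. Lysosome and autophagy genes split, with 14 of 29 higher, 7 lower and a median of 0.28. GABARAPL1, which coats autophagosomes, rose by 1.44 ± 0.104 and the protease gene CTSS by 0.94 ± 0.103. CTSK, a collagen-degrading cathepsin, read 11.87, 11.58, 11.17 and 11.60 with HGF and 9.04, 8.77, 9.07 and 9.19 with PD-98059 and fell by 2.54 ± 0.133. NPC1, a cholesterol exporter of lysosomes, fell by 1.82 ± 0.0975 and CTSD by 1.1 ± 0.114.

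Of 22 tested interferon and antigen presentation genes, 7 were higher and 8 lower, where 27.0% of all genes were higher and 26.9% lower. The risers named were the peptide transporters TAP1 and TAP2, the immunoproteasome subunit PSMB9 and IFI35, which rose by 0.97, 1.06, 1.62 and 1.20. The falls named were the antiviral genes OAS2, OAS1 and HERC6 and the ubiquitin-like modifier ISG15, which fell by 2.49, 1.73, 1.84 and 1.19. OAS2 read 9.87, 9.98, 9.75 and 9.83 with HGF, 7.46, 6.99, 7.40 and 7.62 with PD-98059 and 8.22, 8.39, 8.19 and 8.28 in untreated cells, so its level with PD-98059 was the lowest of the 3. Of 13 NRF2 and oxidative stress genes, 4 rose and 4 fell, against the same shares of all genes. FTH1, the ferritin heavy chain, rose by 1.38 ± 0.0857 and GCLC, of glutathione synthesis, by 0.97 ± 0.266, while TXN, thioredoxin, fell by 1.18 ± 0.118.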
